A study of Mus musculus with 4 samples.

Results

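Accessible chromatin at the 4 mouse Hox clusters was examined in lymph node fibroblastic reticular cells (FRCs), stromal cells that form the fibre network of the T cell zone, with and without Notch2. The members were found by position: 300-bp windows of the table (build mm10) lying up to 100 bp apart were joined into regions, and a region was kept when the midpoint of its strongest window lay in, or within 100000 bp of and nearest to, one of 38 listed Hox genes. This gave 96 of 110110 regions, assigned to 32 of the 38 genes. The HoxA cluster on chromosome 6 held 19 of them, HoxB on chromosome 11 held 27, HoxC on chromosome 15 held 31 and HoxD on chromosome 2 held 19. No region was assigned to Hoxa2, Hoxa4, Hoxa11, Hoxb7, Hoxb13 or Hoxd12. The midpoint lay inside the assigned gene in 51 regions and outside it in 45, and 15 regions were more than 10000 bp away, so that the gene named with a region is its nearest gene and not a shown target. In 6 regions the midpoint lay in more than 1 protein-coding gene, because the annotated Hoxa3, Hoxb3 and Hoxd3 genes span some of their neighbours, and the shortest gene was then used.

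ATAC-seq, in which a transposase cuts open chromatin, was done on 2 groups of 2 libraries. The control group was Notch2 fl/fl, with loxP sites around part of Notch2 and no Cre. The Notch2_cKO group was Ccl19-Cre x Notch2 fl/fl, in which a transgene under the Ccl19 promoter, active in lymphoid tissue fibroblasts, expresses Cre. By the labels all animals were C57BL/6 females of 12 weeks, and the controls were littermates. Each library held nuclei of 50000 sorted BP3hi Pdpn+ CD31- CD45- cells, pooled from the brachial, axillary and inguinal nodes of 6 mice, so every level is an average over nodes of the forelimb and hindlimb regions. Separate pools make the replicates, and p-values measure the spread between 2 pools a group. With 2 against 2 libraries an exact permutation test of a single value cannot go below p = 0.333, so calls come from the fit over all regions.

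Hox genes encode homeodomain transcription factors whose order along the chromosome matches the order of their expression along the body axis. Low-numbered (anterior) genes lie at one end of a cluster and high-numbered (posterior) genes at the other, and genes of the same number in different clusters are paralogs. Adult fibroblasts keep a pattern of Hox expression that reflects where in the body they arose. Polycomb complexes keep silent parts of a cluster closed, Trithorax proteins keep active parts open, and HOX proteins bind DNA together with PBX and MEIS proteins. The clusters also carry microRNA genes of the miR-10 and miR-196 families, which are known to act on Hox transcripts.

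Depth, as counts summed over best windows, was 23629588 and 25740366 for control replicates 1 and 2, and 30260067 and 12340742 for Notch2_cKO replicates 1 and 2. Hox regions took 0.0609% and 0.0651% of the control counts and 0.0746% and 0.0664% of the Notch2_cKO counts, with at least 7 counts in every region and library. Notch2 itself had 17 regions, 5 higher and 1 lower in Notch2_cKO, with summed levels of 179.0 and 185.0 in the controls and 196.0 and 198.0 in Notch2_cKO. Which of them lie in the deleted part was not examined, and they are no test of the deletion. Control replicate 2, labelled female, held 221 and 201 counts at the Y-linked genes Ddx3y and Eif2s3y, where the other 3 libraries held 0. The label may therefore not hold for every mouse of that pool, and the main counts are also given without this library. Reticular fibroblast genes had regions for 11 of 13 listed genes (no region was assigned to Ccl19 or Ccl21a), with summed levels of 1270.0 to 1360.0 over the 4 libraries. Leukocyte genes summed to 118.0 and 109.0 in the controls and 103.0 and 106.0 in Notch2_cKO, with no region of Cd79a. Blood endothelial genes summed to 250 in each control against 319.0 and 304.0 in Notch2_cKO, with 11 of 46 regions higher and 3 lower. Tek and Cdh5 held 8 of the 11, and Kdr held 1 higher and 2 lower. Lymphatic endothelial genes summed to 213.0 and 198.0 against 159.0 and 174.0, with 0 of 41 higher and 7 lower. Reln held 6 of the 7 and its sum fell from a mean of 110.0 to 77.9 CPM, while the sums of Prox1, Lyve1, Flt4 and Mmrn1 did not pass. The part of these other cell types in the Hox results was not tested. In such bulk samples a change in the share of a cell type and a change per cell cannot be told apart.

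Promoter sequences of Hox genes were read from RefSeq windows of build GRCm38.p6, which held 22 of the 38 genes. Shown are the 250 bases before the start, 5′ to 3′ on the gene's strand, for the genes whose start lay in or beside the region with the highest control level of its cluster among such regions (Hoxa3, Hoxc4 and Hoxd9) or in a region that passed the test (Hoxd11, Hoxd9 and Hoxd4). Capitals mark matches to motifs of HOX partners and of Notch and AP-1 factors on either strand: TGATNNAT (PBX-HOX), TGACAG (MEIS), TGGGAA (RBPJ, the DNA-binding partner of Notch) and TGANTCA (AP-1).
Hoxa3: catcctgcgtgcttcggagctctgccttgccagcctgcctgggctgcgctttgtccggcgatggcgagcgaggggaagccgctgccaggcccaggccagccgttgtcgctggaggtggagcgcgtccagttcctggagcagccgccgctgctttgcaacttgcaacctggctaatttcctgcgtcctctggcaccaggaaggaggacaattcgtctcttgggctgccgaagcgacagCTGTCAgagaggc
Hoxc4: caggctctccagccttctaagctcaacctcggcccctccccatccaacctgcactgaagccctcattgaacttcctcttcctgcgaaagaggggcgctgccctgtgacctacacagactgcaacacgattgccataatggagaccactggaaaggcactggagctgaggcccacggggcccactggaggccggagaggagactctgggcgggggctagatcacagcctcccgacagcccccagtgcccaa
Hoxd11: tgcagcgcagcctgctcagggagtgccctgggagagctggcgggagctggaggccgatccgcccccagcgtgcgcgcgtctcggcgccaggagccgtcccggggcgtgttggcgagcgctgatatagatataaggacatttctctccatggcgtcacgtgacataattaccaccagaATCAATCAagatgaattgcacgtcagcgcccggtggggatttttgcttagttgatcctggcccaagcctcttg
Hoxd9: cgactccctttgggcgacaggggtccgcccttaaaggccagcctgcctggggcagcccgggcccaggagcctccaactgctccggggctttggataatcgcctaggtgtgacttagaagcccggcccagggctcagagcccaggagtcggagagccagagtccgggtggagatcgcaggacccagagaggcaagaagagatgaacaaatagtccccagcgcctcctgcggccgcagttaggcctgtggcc
Hoxd4: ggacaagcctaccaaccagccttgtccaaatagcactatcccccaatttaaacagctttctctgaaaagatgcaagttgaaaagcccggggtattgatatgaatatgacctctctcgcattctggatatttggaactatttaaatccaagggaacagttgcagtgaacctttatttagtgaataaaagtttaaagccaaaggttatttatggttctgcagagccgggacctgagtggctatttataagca
The Hoxa3 sequence lies at chr6:52213068-52213317 (minus strand), Hoxc4 at chr15:103034145-103034394, Hoxd11 at chr2:74682073-74682322, Hoxd9 at chr2:74697513-74697762 and Hoxd4 at chr2:74721728-74721977 (all 4 on the plus strand). The Hoxd11 and Hoxc4 sequences precede starts inside their genes, downstream of the annotated starts. Of the HoxC starts read, only that of Hoxc4 lay in or beside a region, at 4.44 CPM in the controls, so Hoxc4 had no other start to be ranked against. In the Hoxd11 sequence the capitals are a PBX-HOX match, which is TGATTGAT read on the other strand, and in the Hoxa3 sequence a MEIS match. The other 3 sequences held none of the 4 motifs. TGATTGAT was in 0.67% of all 32851 RefSeq windows and in 2 of 24 Hox windows, those of Hoxd11 and Hoxa2. TGATNNAT was in 7.68% of all and in 4 Hox windows, TGACAG in 15.9% and 2, TGGGAA in 21.6% and 4, TGANTCA in 6.75% and 1, and CCACNAG, a part of the CTCF motif, in 12.7% and 2. CG dinucleotides, which are dense at many developmental promoters, had a median of 12.5 in Hox windows and 6 in all windows. The Hoxd11 sequence held 20 and the Hoxd4 sequence 3, with 60.4% and 40.4% G and C. A match describes letters and shows no binding.

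The microRNAs of the clusters were chosen after the values were seen, since 2 of the changed regions lay within 1000 bp of one. Mature sequences from RefSeq are given with the seed (bases 2 to 8), which pairs with target transcripts, in capitals.
miR-10b-5p: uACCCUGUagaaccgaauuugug
miR-10a-5p: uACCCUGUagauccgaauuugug
miR-196b-5p: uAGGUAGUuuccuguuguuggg
miR-196a-5p: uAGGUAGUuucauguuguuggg
miR-615-3p: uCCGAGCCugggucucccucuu
The pair miR-10b-5p and miR-10a-5p shared the seed ACCCUGU and the pair miR-196b-5p and miR-196a-5p the seed AGGUAGU. Mir10b lies in the HoxD cluster at chr2:74726070-74726137, and Mir615 in the HoxC cluster.

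Control levels described which parts of the clusters were open in FRCs. Levels are loess-normalized counts of a region's best window as CPM, the count scaled to a fixed library total. Each window has the same length, so levels can be compared between regions. The median control level was 4.00 CPM over the 96 Hox regions and 3.36 CPM over all regions. At gene ends (within 1000 bp of either end of a protein-coding gene) the order was the other way, with 5.53 CPM in 37 Hox regions and 22.4 CPM in all 13447 regions. By cluster the median was highest in HoxD (8.24 CPM), then HoxA (6.00), HoxC (3.99) and HoxB (2.21).

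**Figure D1:**
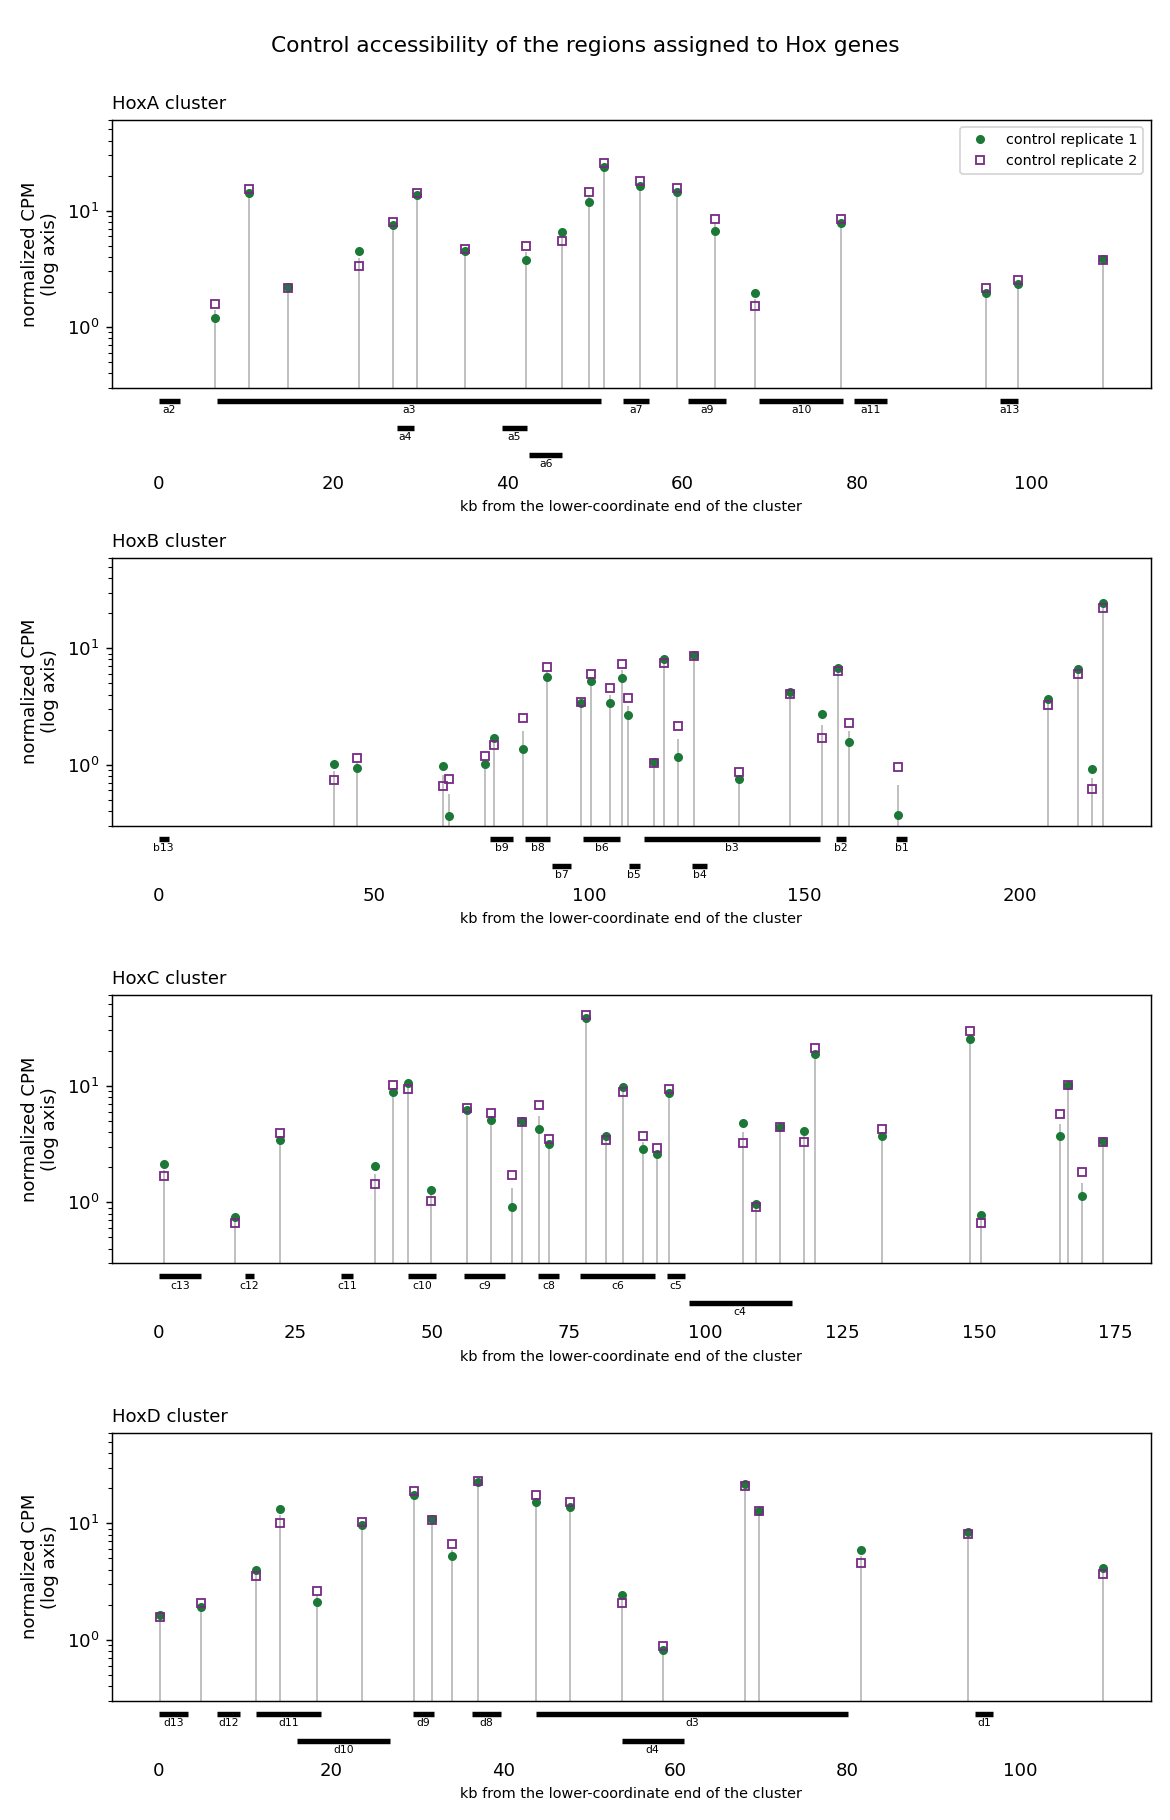
Control level of each Hox region (normalized CPM, log axis) against its distance in kb from the lower-coordinate end of its cluster, with the genes as bars below each panel (a3 is Hoxa3). Filled circles are control replicate 1, open squares replicate 2 and grey lines end at their mean. The highest point is the Hoxc6 region at 38.5 and 40.8 CPM, and HoxB has its highest level outside the cluster.

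The most open Hox region of all lay inside Hoxc6 (chr15:102999101-102999650), a gene of thoracic and forelimb levels, at 38.5 and 40.8 CPM (39.6 ± 1.62, SD, n = 2), above 95.0% of all regions. A region 32544 bp beyond Hoxc4 (chr15:103069051-103069700) came next in HoxC at 25.2 and 29.8 CPM (27.5 ± 3.24). The controls of these regions did not overlap. Next came another region outside Hoxc4 at 19.9 CPM, so the anterior side of HoxC, genes 4 to 6, held its 3 highest levels. At the posterior end the Hoxc13 region stood at 1.90 CPM, the Hoxc11 region at 1.75 CPM and the Hoxc12 regions at 0.704 and 3.69 CPM.

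In HoxA the highest level lay at the start of Hoxa3 (chr6:52213101-52213650), whose sequence is shown above, at 23.9 and 25.5 CPM (24.7 ± 1.14, SD, n = 2). Hoxa7 followed (chr6:52217301-52217850) at 16.3 and 18.0 CPM (17.2 ± 1.16), and both lie in the middle of the cluster. The region beside Hoxa9 came next at 14.5 and 15.5 CPM and did not separate from a Hoxa3 region at 14.8 CPM. Posterior levels were low, from 2.06 to 3.84 CPM over the 3 regions of Hoxa13, a gene of the distal limb and genital region.

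In HoxD the highest levels were at Hoxd8 (chr2:74705151-74705450), at 22.8 and 23.1 CPM (22.9 ± 0.217, SD, n = 2), and in Hoxd3 (chr2:74736001-74736650), at 21.7 and 21.1 CPM (21.4 ± 0.431). The region at the start of Hoxd9 followed at 18.3 CPM, and neither pair of neighbours in this order overlapped. Hoxd4, an anterior gene between Hoxd8 and Hoxd3 within the annotated span of Hoxd3, was low, with regions at 2.25 and 0.852 CPM. Hoxd13 stood at 1.61 and 2.00 CPM.

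In HoxB the highest level lay outside the cluster, 45546 bp beyond Hoxb1 (chr11:96413501-96414200), at 24.5 and 22.0 CPM (23.3 ± 1.76, SD, n = 2). Within the cluster Hoxb4 was highest (chr11:96318401-96318950), at 8.82 and 8.56 CPM (8.69 ± 0.189). The Hoxb1 gene, an anterior hindbrain gene, had a single region inside it at 0.664 CPM. The 6 regions of Hoxb9 lay between 0.556 and 1.59 CPM.

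Grouped by paralog number, the 24 regions of genes 1 to 3 inside the clusters had a median of 5.88 CPM, the 26 of genes 4 to 8 had 4.40 CPM and the 30 of genes 9 to 13 had 2.22 CPM. Within the posterior group the 20 regions of genes 9 and 10 had a median of 5.73 CPM and the 10 of genes 11 to 13 a median of 2.03 CPM. This grouping goes by the number of the assigned gene and not by position. Genes 1 to 3 included Hoxa3 regions between Hoxa6 and Hoxa7, at 24.7 and 13.2 CPM. Genes 9 to 13 included Hoxb9 regions 9580 to 36230 bp from the gene, at 0.556 to 1.04 CPM. Summed over the regions of a gene, control levels were highest at Hoxa3 (85.8 and 94.3 CPM over 9 regions), Hoxc4 (83.9 and 94.1 over 12), Hoxd3 (72.2 and 75.1 over 5) and Hoxc6 (62.1 and 64.4 over 5). The first 2 overlapped, and each of the others stood apart from the next. Sums grow with the number of regions, and the long Hoxa3 and Hoxd3 annotations and the distal regions of Hoxc4 add to theirs. The lowest sum was at Hoxc11 (2.16 and 1.57 CPM, 1 region), and it overlapped with Hoxc13 (2.23 and 1.83 CPM, 1 region).

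**Figure D2:**
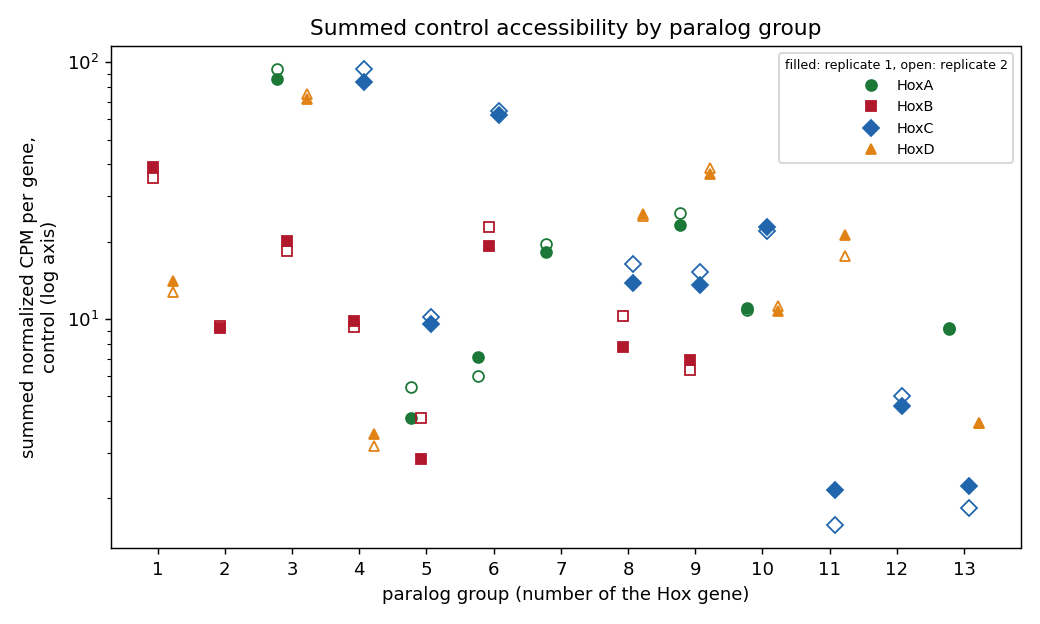
Summed control level of each Hox gene with a region (normalized CPM, log axis) by paralog group, with filled symbols for control replicate 1 and open symbols for replicate 2, and a symbol shape for each cluster. Hoxa3, Hoxc4, Hoxd3 and Hoxc6 stand highest, and Hoxc11 and Hoxc13 lowest.

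The comparison of Notch2_cKO with control asked whether chromatin at the Hox clusters differed when Notch2 was deleted in FRCs. Of the 96 Hox regions, 10 were higher in Notch2_cKO, 3 were lower and 83 did not pass (edgeR's quasi-likelihood test at 0.05 after Benjamini-Hochberg adjustment over all regions). Among all regions 23.7% passed, 12.5% higher and 11.2% lower, against 13.5% of Hox regions, 10.4% higher and 3.12% lower. An unadjusted p under 0.05 was found in 28 of the 96 Hox regions, against 38316 of all 110110 regions. Changes were small: 3 of the 13 were 2-fold or more, against 41.8% of all regions that passed. The 37 Hox regions at gene ends held 2 higher and 2 lower (10.8%), close to the 10.3% that passed at gene ends in general.

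The median log2 change was 0.22 over the Hox regions and 0.01 over all regions, with 70.8% and 50.8% above 0. The groups did not overlap in 51 of 96 Hox regions, with Notch2_cKO above in 39 and below in 12, where 59.9% of all regions had no overlap. The split of calls moved with the scaling. It was 5 higher and 5 lower with median centring (all regions: 12003 and 17616), and 15 higher and 1 lower with library totals (all regions: 16204 and 10849). Without control replicate 2 it was 9 higher and 1 lower, without control replicate 1 it was 4 and 0, without Notch2_cKO replicate 1 it was 6 and 2, and without Notch2_cKO replicate 2 it was 18 and 1. With replicate number as a block it was 4 and 1, and DESeq2 called 3 higher and 0 lower.

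**Figure D3:**
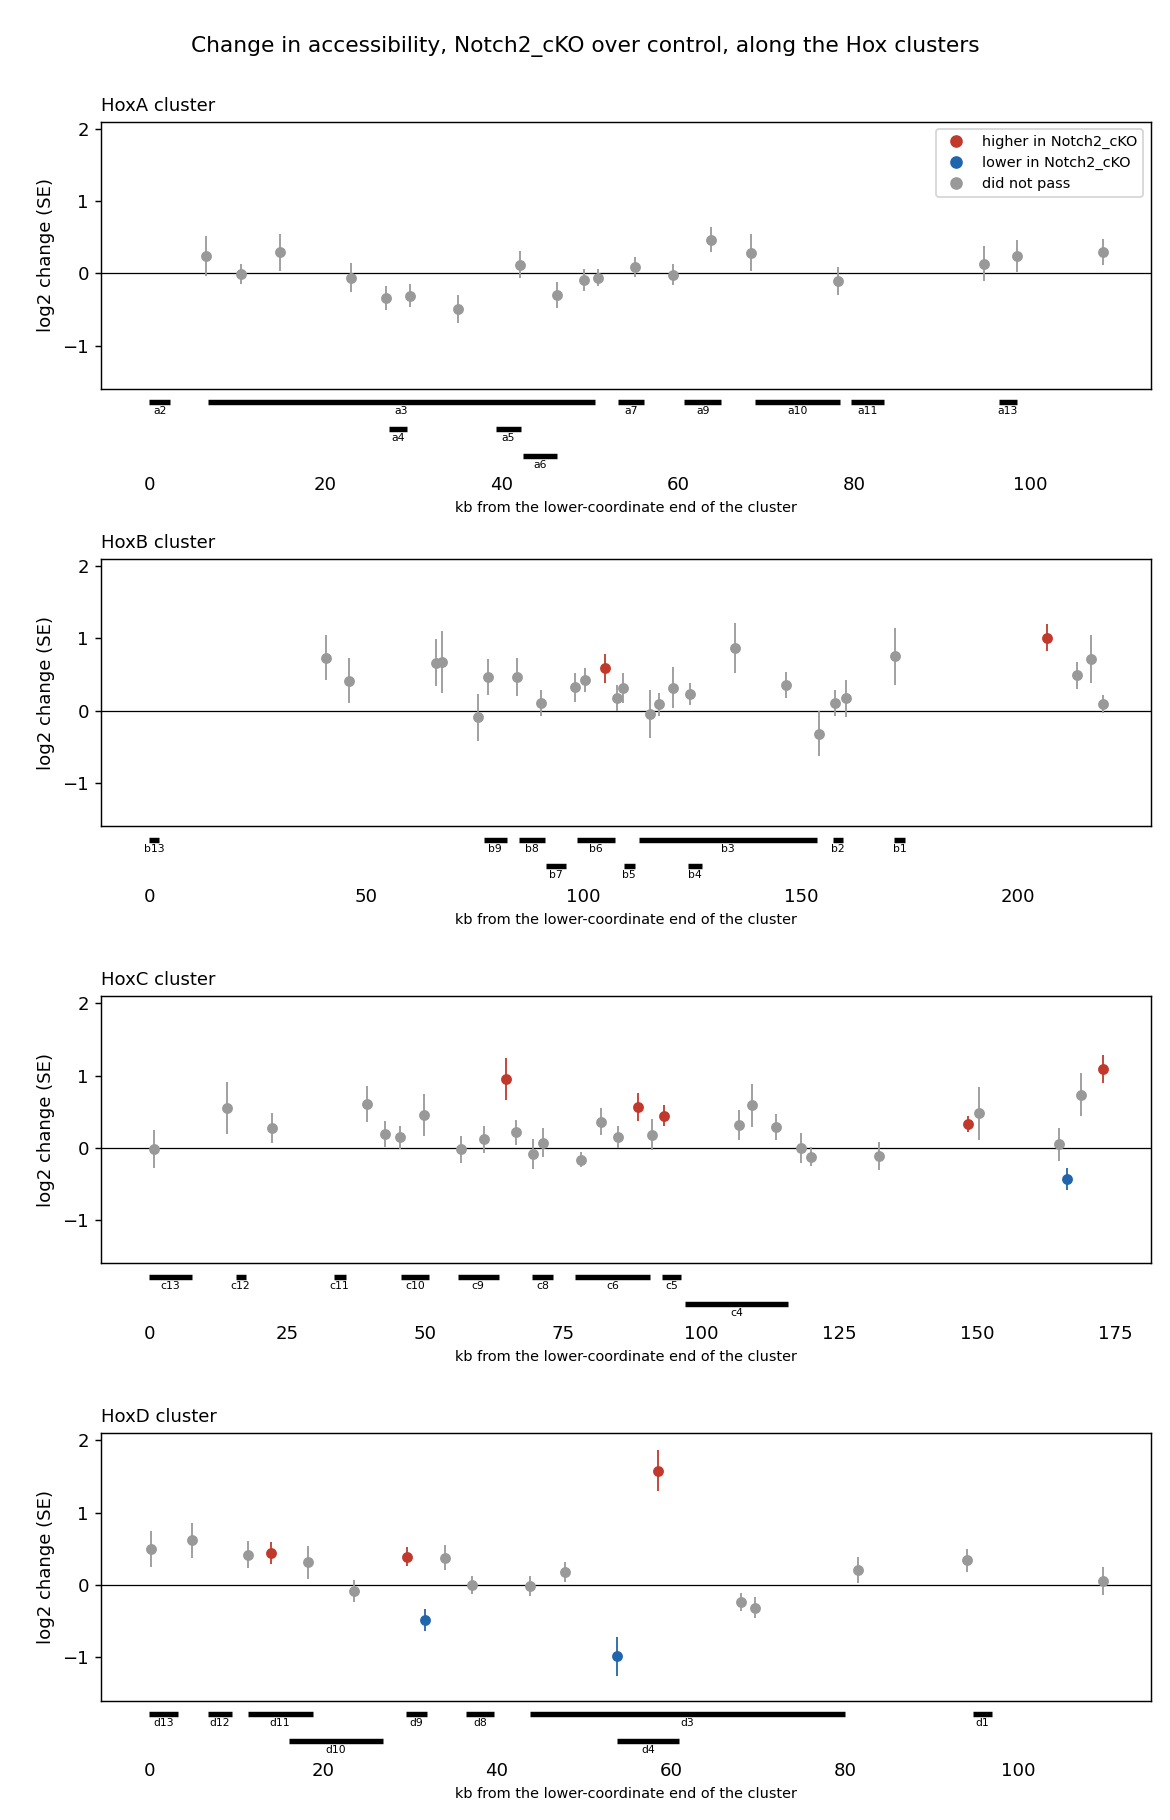
Log2 change of each Hox region, Notch2_cKO over control, with its standard error, against distance in kb from the lower-coordinate end of the cluster, and the genes as bars below each panel. Red regions were higher and blue regions lower in Notch2_cKO at an adjusted p under 0.05, and grey regions did not pass. HoxA is all grey, and HoxD holds the highest and the lowest value, at 1.58 and -0.99.

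HoxD held 3 higher and 2 lower regions of 19 (15.8% and 10.5%, against 12.5% and 11.2% of all regions). It also held the largest change of any Hox region. Inside Hoxd4 (chr2:74726551-74727000) the levels were 0.818 and 0.886 CPM in the controls and 2.90 and 2.01 CPM in Notch2_cKO, from 19 and 22 counts against 88 and 26. Both Notch2_cKO libraries lay above both controls, by 1.58 on the log2 scale (SE 0.28, adjusted p = 0.000386). Mir10b, whose mature sequence is shown above, lies 663 bp from the middle of its best window. At the start of the same gene (chr2:74721701-74722300), where the Hoxd4 sequence above lies, levels were 2.41 and 2.09 CPM in the controls and 1.12 and 1.16 CPM in Notch2_cKO. This region fell by 0.99 (SE 0.27, adjusted p = 0.00996), and its groups did not overlap either. Hoxd4 was thus lower at its start and higher towards Mir10b, and as a sum of both regions it did not pass (log2 0.23, adjusted p = 0.457). The higher region passed under all 17 alternative fits, with adjusted p up to 0.0309. The lower region lost its call under DESeq2 (adjusted p = 0.157), without control replicate 1 (0.0819) and without Notch2_cKO replicate 1 (0.0731).

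Hoxd9, a gene of lumbar and limb levels, also held 1 region of each kind. At its start (chr2:74697601-74698250) levels were 17.7 and 18.8 CPM in the controls and 26.0 and 21.5 CPM in Notch2_cKO, a rise of 0.39 (SE 0.13, adjusted p = 0.0329). Towards its other end (chr2:74699651-74700200) they were 11 and 10.6 CPM against 8.20 and 7.02 CPM, and fell by 0.48 (SE 0.16, adjusted p = 0.0295). The groups did not overlap in either region. The region at the annotated start of Hoxd11 (chr2:74679251-74679850) did not pass (log2 0.42, adjusted p = 0.12). A region at another RefSeq start, inside the gene, carries the PBX-HOX match (chr2:74681901-74682600). It stood at 13.2 and 10.1 CPM in the controls and 16.0 and 15.6 CPM in Notch2_cKO, 0.44 higher (SE 0.15, adjusted p = 0.0385). These 3 calls were close to the threshold. The rise at Hoxd9 was lost without control replicate 1 (adjusted p = 0.287), control replicate 2 (0.164) or Notch2_cKO replicate 1 (0.247), the fall at Hoxd9 without control replicate 1 (0.144), control replicate 2 (0.108) or Notch2_cKO replicate 2 (0.0779), and the rise at Hoxd11 without control replicate 2 (0.527). DESeq2 and the replicate block also lost all 3. The open regions of Hoxd8 and Hoxd3 did not pass: Hoxd8 stood at 25.0 and 20.3 CPM in Notch2_cKO, on either side of its controls, and Hoxd3 at 18.6 and 17.5 CPM, below both controls (log2 -0.24, adjusted p = 0.188).

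HoxC held 5 higher regions and 1 lower region of 31 (16.1% and 3.23%, against 12.5% and 11.2% of all regions). The strongest lay 56994 bp beyond Hoxc4 (chr15:103093551-103094150), at 3.34 and 3.32 CPM in the controls and 7.93 and 5.80 CPM in Notch2_cKO. It was 1.09 higher on the log2 scale (SE 0.19, adjusted p = 0.000349), with no overlap, and passed under all 17 alternatives (adjusted p up to 0.0117). On the same side, 50594 bp from Hoxc4 (chr15:103087151-103087800), a region at 10.1 CPM in each control stood at 7.82 and 7.02 CPM and fell by 0.43 (SE 0.16, adjusted p = 0.0483). The second most open region of the cluster, 32544 bp from Hoxc4, rose from 25.2 and 29.8 CPM to 34.7 and 34.4 CPM (log2 0.33, SE 0.12, adjusted p = 0.0442). The distal side of Hoxc4 thus held regions that rose and 1 that fell, and the groups did not overlap in any of these 3. The fall was lost when any of the 4 libraries was left out (adjusted p = 0.176, 0.195, 0.0646 and 0.105 without control replicates 1 and 2 and Notch2_cKO replicates 1 and 2). The smaller rise was lost without control replicate 1 (0.523) or 2 (0.105), and under TMM scaling (0.133).

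Inside HoxC, the region of Hoxc5 (chr15:103014201-103014550) stood at 8.64 and 9.35 CPM in the controls and 12.0 and 12.5 CPM in Notch2_cKO (log2 0.44, SE 0.15, adjusted p = 0.0344). Mir615 lies 560 bp from the middle of its best window. In Hoxc6 (chr15:103009251-103009800) levels were 2.89 and 3.72 CPM against 4.98 and 4.79 CPM (log2 0.56, SE 0.20, adjusted p = 0.0427). Beside Hoxc9 (chr15:102985601-102986000), at 1306 bp, they were 0.911 and 1.73 CPM against 2.95 and 1.93 CPM (log2 0.95, SE 0.29, adjusted p = 0.0233). The Notch2_cKO libraries lay above both controls in each, by a narrow gap at Hoxc9. All 3 were lost without control replicate 1 (adjusted p = 0.285, 0.359 and 0.243 for Hoxc5, Hoxc6 and Hoxc9). The Hoxc5 call was also lost without control replicate 2 (0.148), and without Notch2_cKO replicate 1 the Hoxc6 and Hoxc9 calls were lost (0.15 and 0.41). DESeq2 called none of these 3. The most open Hox region, in Hoxc6, stood at 36.8 and 33.7 CPM in Notch2_cKO, below both controls, and did not pass (log2 -0.16, adjusted p = 0.29).

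HoxB held 2 higher and 0 lower regions of 27 (7.41% higher, against 12.5% higher and 11.2% lower of all regions). The region 32646 bp beyond Hoxb1 (chr11:96400601-96401250) stood at 3.65 and 3.28 CPM in the controls and 6.25 and 8.04 CPM in Notch2_cKO. It rose by 1.01 on the log2 scale (SE 0.19, adjusted p = 0.0006) and passed under all 17 alternatives (adjusted p up to 0.00772). In Hoxb6 (chr11:96298901-96299550), a gene of thoracic levels, levels were 3.38 and 4.51 CPM against 6.70 and 4.79 CPM (log2 0.58, SE 0.20, adjusted p = 0.0417). The groups did not overlap, but the gap at Hoxb6 was narrow, and its call was lost without control replicate 1 (adjusted p = 0.339) or Notch2_cKO replicate 1 (0.499). The open regions did not pass: the region 45546 bp from Hoxb1 stood at 25.9 and 23.5 CPM in Notch2_cKO (log2 0.09, adjusted p = 0.634) and Hoxb4 at 10.2 and 10.1 CPM (log2 0.23, adjusted p = 0.299). The Hoxb4 region is also the nearest to Mir10a, which encodes the other miR-10 with the shared seed, 1476 bp away.

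In HoxA 0 of 19 regions passed in either direction with edgeR or with DESeq2, where 23.7% of all regions passed with edgeR. An unadjusted p under 0.05 with edgeR was found in 3 of them (all regions: 38316 of 110110). The lowest adjusted p was 0.0595, at Hoxa9 (6.74 and 8.48 CPM in the controls, 11.9 and 8.66 CPM in Notch2_cKO, log2 0.47). A Hoxa3 region followed at 0.0725 (4.49 and 4.72 CPM against 3.17 and 3.47 CPM, log2 -0.49). The open start region of Hoxa3 stood at 23.6 and 23.9 CPM in Notch2_cKO (log2 -0.06, SE 0.12) and Hoxa7 at 19.8 and 16.2 CPM (log2 0.08, SE 0.14), both overlapping their controls. The region nearest to Mir196b, at Hoxa10, stood at 1.95 and 1.52 CPM against 2.26 and 1.85 CPM (log2 0.29, adjusted p = 0.459).

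**Figure D4:**
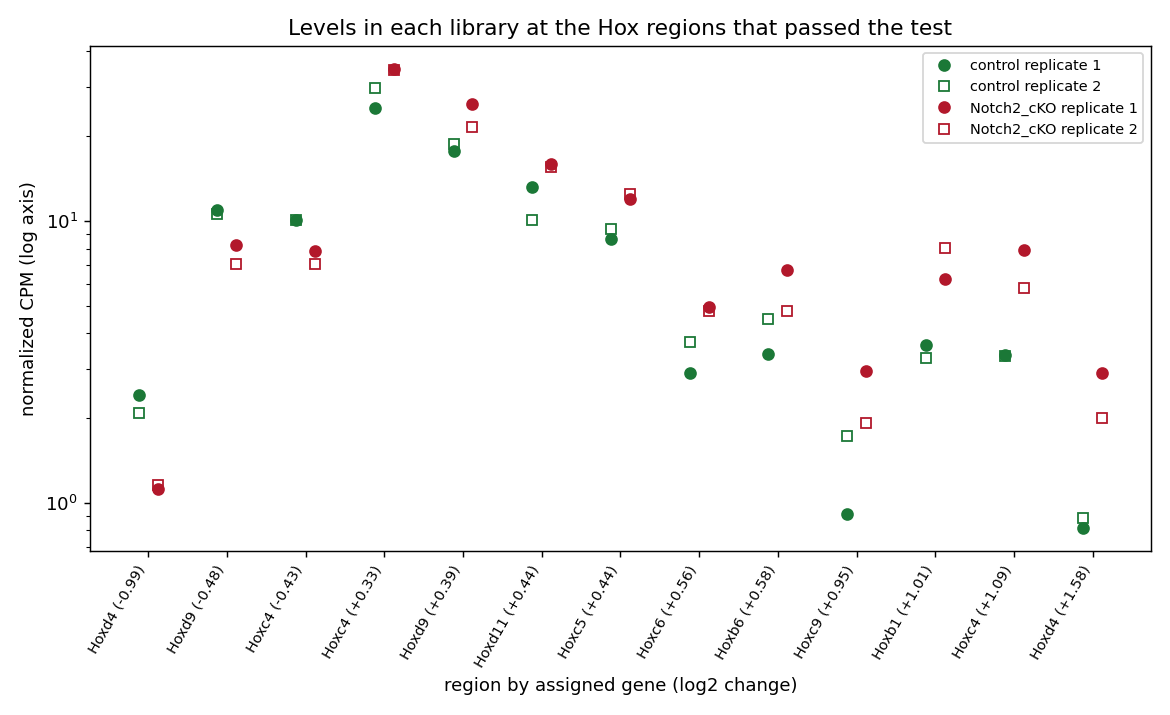
Level in each library (normalized CPM, log axis) of the 13 Hox regions that passed the test, ordered by log2 change, which stands beside the gene name. Green symbols are controls, red symbols Notch2_cKO, circles replicate 1 and squares replicate 2. The 3 regions at the left were lower in Notch2_cKO and the 10 others higher, with no overlap between groups.

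By number of the assigned gene, 0 of the 24 regions of genes 1 to 3 inside the clusters passed (edgeR), with a median log2 change of 0.04. An unadjusted p under 0.05 was found in 5 of them, against 38316 of all 110110 regions. The 26 regions of genes 4 to 8 held 4 higher and 1 lower (19.2% passed, median 0.22). The 30 regions of genes 9 to 13 held 3 higher and 1 lower (13.3% passed, median 0.39). Among all regions 23.7% passed, more than in any of these groups of genes. Whether the groups of genes differ was not tested. Level moved with the change: the 34 Hox regions below the median level of all regions (mean over the 4 libraries) had a median change of 0.46, and the 62 above it 0.12, against 0.02 and 0.00 for all regions below and above. In HoxA the medians below and above that level were 0.25 and -0.06, in HoxB 0.47 and 0.31, in HoxC 0.52 and 0.15, and in HoxD 0.50 and 0.12. The posterior genes also had the lowest median level, so the 2 orderings overlap.

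Summed over all regions of a gene, 3 of the 32 Hox genes were higher and 0 lower (edgeR over 17695 genes), where 10.3% of all genes were higher and 8.17% lower. Hoxb1 rose from 39.2 and 35.3 CPM to 47.7 and 45.5 CPM (log2 0.33, SE 0.09, adjusted p = 0.0288), and 4 of its 5 regions lie outside the cluster. Hoxc4 rose from 83.9 and 94.1 CPM to 108.0 and 103.0 CPM (log2 0.25, SE 0.08, adjusted p = 0.0339). Hoxd11 rose from 21.3 and 17.6 CPM to 24.5 and 27.0 CPM (log2 0.40, SE 0.12, adjusted p = 0.0422). The other 29 did not pass, among them the posterior Hoxd13 at 3.95 and 3.94 CPM against 6.18 and 4.86 CPM (log2 0.53, adjusted p = 0.063). The count of 3 was 1 without control replicate 1, 1 without control replicate 2, 1 with the replicate block and 8 without Notch2_cKO replicate 2.

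The clusters were set beside their surroundings, the regions within 1000000 bp on either side. In HoxB the median log2 change was 0.35, and it was 0.28 in its 152 flanking regions (32 higher, 3 lower) and 0.24 over the whole of chromosome 11 (1336 higher, 371 lower of 6607). The shift above 0 was thus also measured outside the cluster, along that chromosome. In HoxC the medians were 0.22 in the cluster, 0.12 in 161 flanking regions (15 higher, 6 lower) and -0.02 on chromosome 15. In HoxD they were 0.21, 0.05 in 115 flanking regions (8 higher, 11 lower) and 0.02 on chromosome 2. In HoxA they were -0.01, 0.05 in 130 flanking regions (14 higher, 5 lower) and -0.02 on chromosome 6. With flanks of 500000 bp the flank medians were 0.44 in HoxB, above the cluster, 0.15 in HoxC, 0.12 in HoxD and 0.15 in HoxA. The cluster medians moved with 1 library: without Notch2_cKO replicate 1 they were 0.13 in HoxB, 0.08 in HoxC and 0.14 in HoxD, against flanks of 0.14, 0.03 and 0.01. Summed over its regions, HoxB stood at 105.0 and 108.0 CPM in the controls and 137.0 and 118.0 CPM in Notch2_cKO. HoxC stood at 201.0 and 215.0 against 240.0 and 212.0, HoxD at 175.0 in each control against 193.0 and 177.0, and HoxA at 149.0 and 160.0 against 161.0 and 141.0. The groups overlapped in HoxA and HoxC. Centring each cluster on its flanks left 4 higher and 4 lower Hox regions.

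**Figure D5:**
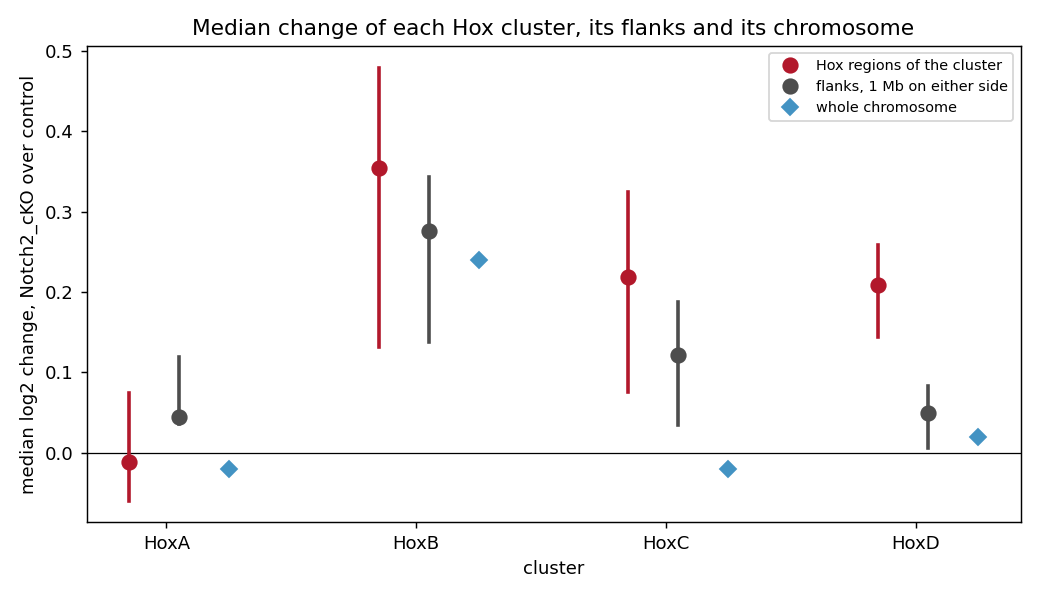
Median log2 change, Notch2_cKO over control, of the Hox regions of each cluster (red), of the regions within 1 Mb on either side (grey) and of the whole chromosome (blue diamonds). Bars run from the lowest to the highest value when 1 of the 4 libraries is left out. HoxB, its flanks and its chromosome all lie above 0, at 0.35, 0.28 and 0.24.

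Among the flanking genes, found by position, 64 of 505 regions were higher (12.7%, against 12.5% of all regions) and 18 lower (3.56% against 11.2%), with a median log2 change of 0.15. A region 6246 bp from Cbx3, a heterochromatin protein gene beside HoxA, stood at 1.02 and 1.23 CPM in the controls and 10.4 and 6.18 CPM in Notch2_cKO (log2 2.93, adjusted p = 2.08e-07). In Skap1, an adaptor protein gene of T cell signalling beside HoxB, levels were 1.15 and 1.11 against 5.77 and 5.10 CPM (log2 2.28, adjusted p = 7.39e-07). In Pde1b, a phosphodiesterase gene beside HoxC, they were 2.62 and 3.20 against 8.51 and 8.13 CPM (log2 1.51, adjusted p = 6.76e-06). These 3 had the smallest p of the 505 among regions that passed with no overlap between groups. The lack of overlap is thus given by the choice, and their size says nothing about the list as a whole.

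The HOX partners and cluster regulators held 252 regions over 29 of 30 listed genes, of which 31 were higher (12.3%, against 12.5% of all regions) and 18 lower (7.14% against 11.2%), with a median log2 change of 0.01. Pknox2, a relative of the MEIS genes, held 4 higher and 4 lower of 39. Its region of smallest p rose from 19.2 and 19.0 CPM to 35.3 and 34.3 CPM (log2 0.87, SE 0.11, adjusted p = 1.84e-05). This region was picked among those that passed with no overlap between groups. Meis1 held 2 higher and 0 lower of 23, and Meis2 held 3 higher and 2 lower of 30. The 14 Polycomb genes of the list held 79 regions, 8 higher and 6 lower. Ezh2, Ezh1, Cbx2 and Cbx8 each held 1 higher region and none lower, Bmi1 and Phc1 each held 1 lower and none higher, Eed, Jarid2 and Phc2 held both kinds, and the other 5 held none. As sums, Ezh1 rose (log2 0.42, adjusted p = 0.0171) and Bmi1 and Phc1 fell by 0.33 each (adjusted p = 0.0135 and 0.0111). Ctcf, whose protein marks boundaries within the clusters, had 0 of 5.

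Other positional identity genes held 281 regions, 30 higher (10.7%, against 12.5% of all regions) and 29 lower (10.3% against 11.2%), with a median log2 change of 0.01, so both shares were near those of all regions. Tbx5, a forelimb gene, held 2 higher and 0 lower of 11, while Tbx4 and Pitx1, which are hindlimb genes, held 0 higher and 1 lower of 5 and 0 of 3. Summed levels of these limb genes did not pass: Tbx5 had a log2 change of 0.16 (adjusted p = 0.296), Tbx4 of -0.08 (0.755) and Pitx1 of 0.28 (0.18). Sums of other listed genes passed in both directions (adjusted p 0.00476 to 0.0427). Prrx1, Prrx2, Msx2 and Meox1 were higher (log2 0.40, 0.45, 0.48 and 0.27). Irx3, Irx5, Lhx2 and Dlx5 were lower (-0.42, -0.26, -0.33 and -0.40). Of all gene sums 10.3% were higher and 8.17% lower. A region 90846 bp from Irx3, a patterning homeobox gene, stood at 4.95 and 5.33 CPM in the controls and 0.876 and 0.850 CPM in Notch2_cKO, and fell by 2.56 (adjusted p = 4.45e-07). A region 74469 bp from Prrx1, a gene of limb bud and other fibroblasts, rose from 1.83 and 1.86 CPM to 6.44 and 7.18 CPM (log2 1.87, adjusted p = 1.82e-06). A region 80640 bp from Tbx18 rose from 1.78 and 1.67 CPM to 6.21 and 5.02 CPM (log2 1.74, adjusted p = 7.49e-06), although Tbx18 as a whole held 2 higher and 5 lower of 14. These 3 regions had the smallest p of the 281 among those that passed with no overlap between groups, so their size says nothing about the list as a whole.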

How the data were processed

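The table deposited by the authors holds whole-number counts of ATAC-seq reads in 300-bp windows of build mm10. Per the labels these were loess-normalized in csaw, but the deposited counts had totals and histograms of raw counts and were used as counts. The submitters' processing notes name Bowtie2 2.4.5, Picard 2.27.5, SAMtools 1.14, Trim Galore 0.6.7, cutadapt and deepTools. For the peak caller, window filter and transposase shift, nothing is given in the sources used here.

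Windows up to 100 bp apart were joined, and the window with the most counts stood for each region. Genes were taken from RefSeq (same assembly). limma 3.58.1 gave loess offsets in the manner of csaw, and edgeR 4.0.16 in R 4.3.3 fitted genotype over all 110110 regions (quasi-likelihood test, Benjamini-Hochberg at 0.05), or over gene sums. CPM is a count divided by its offset, as CPM. The scripts were tested on simulated data. DESeq2 1.42.0, limma, other scalings, filters, a replicate block and left-out libraries were alternatives. Depth was 12340742 to 30260067 best-window counts a library, and intervals were left to the standard errors (SE) of the fit. The chi-square per region was 1.89 between the controls, 2.73 between the Notch2_cKO libraries and 10.1 between control replicate 1 and Notch2_cKO replicate 1, so the libraries of a group differed by more than counting noise.

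Named regions were the 2 highest by control level in each cluster, up to 10 Hox regions of smallest p in each direction with no overlap between groups, and up to 3 per other list, of which some are not reported here. Members and lists were chosen with earlier results of these data known. The genes are described by chromatin, not expression.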

Additional observations from a re-analysis of the deposited data

How the results depend on the processing

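Of the 13 Hox calls, those 56994 bp beyond Hoxc4, 32646 bp beyond Hoxb1 and inside Hoxd4 towards Mir10b held in all 17 alternative fits. The other 10 lost the call in some, and none changed direction. The cause of each shift was not tested.

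Counts of Hox regions higher and lower (10 and 3) became 5 and 5 with median centring, 3 and 0 with DESeq2, 3 and 1 at adjusted p under 0.01, and 4 higher when centred on the cluster flanks, an alternative added after seeing the data. With library totals 1 was lower. Leaving out 1 library gave 4 to 18 higher and 0 to 2 lower. By cluster, leaving out 1 library gave 0 to 1 higher and 0 to 1 lower in HoxA, 1 to 5 higher in HoxB, 1 to 8 higher and 0 lower in HoxC, and 1 to 4 higher and 0 to 1 lower in HoxD. HoxA gained 1 higher with TMM, DESeq2 size factors or library totals, and 1 lower with median centring or centring on flanks. HoxB had 4 higher with library totals, and 1 with DESeq2, limma-trend (prior counts 2 and 0.5), flank centring, adjusted p under 0.01, a gene within 10000 bp or regions inside the cluster. HoxC had 2 higher and 2 lower with median centring, 1 and 0 with DESeq2 or adjusted p under 0.01, 3 higher with limma-trend, 2 higher with flank centring, 0 lower with TMM, DESeq2 size factors or library totals, and 3 and 0 within 10000 bp or inside the cluster. HoxD had 1 higher with median centring or flank centring, 1 and 0 with DESeq2, 1 and 1 at adjusted p under 0.01, and 1 lower with library totals.

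The median log2 change with library totals was 0.45 in HoxB, 0.31 in HoxC and 0.30 in HoxD, and with median centring 0.17 in HoxD. Leaving out 1 library gave -0.06 to 0.07 in HoxA, 0.13 to 0.48 in HoxB, 0.076 to 0.32 in HoxC and 0.14 to 0.26 in HoxD. Median centring moved the median of all regions to -0.09 and library totals to 0.05.

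Gene sums had 6 Hox genes higher with TMM and 1 to 8 without 1 library. HOX partners and regulators (31 and 18) had 15 and 4 with DESeq2, 19 and 7 at adjusted p under 0.01, 34 lower with median centring, and 18 to 28 higher and 8 to 24 lower without 1 library. Positional genes (30 and 29) had 11 and 14 with DESeq2, 16 higher at adjusted p under 0.01, 16 and 9 within 10000 bp, and 15 to 32 higher and 20 to 39 lower without 1 library. Flanking genes (64 and 18) had 26 higher with DESeq2, 35 higher at adjusted p under 0.01, 39 and 29 centred on flanks, 42 and 10 within 10000 bp, and 41 to 89 higher and 14 to 29 lower without 1 library.

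Same-numbered libraries did not deviate together (correlation -0.15). With 2 libraries a group the deviations of a group mirror each other, so this cannot show that the libraries were unpaired. A shared batch was not tested. A replicate block gave 4 Hox regions higher and 1 lower: 1 higher in HoxB, 2 higher and 0 lower in HoxC, and 1 higher and 1 lower in HoxD, with 1 Hox gene higher as a sum. With the numbers crossed, the replicate block gave 18 higher and 5 lower Hox regions (1 and 2 in HoxA, 4 higher in HoxB, 6 higher in HoxD), 7 genes higher, 32 lower regions of HOX partners, 44 lower of positional genes and 31 lower of flanking genes. Over all regions the block called 12250 higher and 10808 lower, and the crossed block 18210 and 16808.

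The least deep library, Notch2_cKO replicate 2, sets the precision at low regions, where 15 counts were the smallest in a region that passed.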
